A study of Rattus norvegicus with 12 samples.

Results

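The genes described here carry out antigen presentation by major histocompatibility complex (MHC) class I and build the 20S proteasome with its activators. They were chosen by symbol from the table of normalized counts: every symbol starting with RT1- (the rat MHC genes), every 20S alpha and beta subunit (Psma and Psmb with a number), every numbered Psme activator, and B2m, Tap1, Tap2, Tapbp, Tapbpl, Nlrc5, Erap1, Calr, Canx, Pdia3, Ciita and Cd74. This rule found 63 of the 12271 genes listed, and 59 of the 63 were tested because their mean over the 12 libraries reached 10 normalized counts. RT1-N1, RT1-M6-1, RT1-O1 and Ciita fell below that mean, and Nlrc5 was not analysed here.

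RNA was sequenced from ventricular cardiac fibroblasts of Sprague Dawley rats at postnatal day 2. All cultures were transfected. The sample labels put collection at 48 h after transfection, whereas the study's methods count 48 h from a later change of medium. The cultures received a pair of universal negative control siRNAs, 2 siRNAs against Yap (gene symbol Yap1), 2 against Wwtr1 (which encodes TAZ), or siRNAs against both. Each siRNA was used at 25 nM, so the double knockdown may have carried more siRNA in total. The study's methods do not say whether total siRNA was made equal between the groups. The amount of siRNA and the loss of both targets cannot be told apart in that group. Yap and TAZ are transcriptional coactivators of the Hippo pathway, and the comparisons ask what lowering them does to fibroblast transcripts. Each of the 4 groups had 3 libraries, which the study's methods describe as separate litters. A library held 33886920 to 41059839 counts over the genes listed. In the siRNA field of the Yap+Wwtr1 samples the Yap siRNAs are not listed. The design text of the series has myocytes where its title and the sample labels have fibroblasts.

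Nucleated cells display peptides from their own proteins on class I molecules. The proteasome, a barrel of alpha and beta subunit rings, cuts proteins into peptides. Under interferon its catalytic subunits Psmb5, Psmb6 and Psmb7 are replaced by Psmb8, Psmb9 and Psmb10 to form the immunoproteasome, while Psme1 and Psme2 form the PA28 cap. The TAP transporter moves peptides into the endoplasmic reticulum (ER), where tapasin and the chaperones load them onto a class I heavy chain paired with the light chain B2m.

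The targeted genes were lowered in the groups that carry their names. Yap1 stood at 3042, 3776 and 2984 normalized counts in negative siRNA, 532, 576 and 625 in Yap siRNA, 3169, 3151 and 3184 in Wwtr1 siRNA, and 713, 739 and 1474 in Yap+Wwtr1 siRNA. Wwtr1 stood at 2364, 2565 and 2280.0 normalized counts in negative siRNA, 2134, 2499.5 and 2374 in Yap siRNA, 524, 550.0 and 637 in Wwtr1 siRNA, and 818, 731 and 1056 in Yap+Wwtr1 siRNA. Wwtr1 remained higher in the double knockdown than in the matching single knockdown and the Yap1 difference was not called, the log2 fold changes being 0.59 ± 0.13 (adjusted p = 0.00804) for Wwtr1 and 0.67 ± 0.22 (adjusted p = 0.0623) for Yap1. Here and throughout, log2 fold changes are differences of log2(normalized count + 1) from limma, given with their standard error (SE). The adjusted p covers all 11871 genes tested by the method of Benjamini and Hochberg, and a gene is called when it is under 0.05. The Yap1 difference between the double knockdown and Yap siRNA was called in 2 of 12 fits that left out 1 library. Its log2 fold change ran from 0.33 to 0.86 over them. Values in a library are listed in the order replicate 1, 2 and 3.

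Class I presentation genes rose together in the double knockdown, and most constitutive proteasome subunits did not rise with them. Of the 59 genes tested, 34 were called higher and 6 lower in Yap+Wwtr1 siRNA against negative siRNA, where 17.1% and 15.6% of all genes tested were called higher and lower. The 34 comprised 21 of 24 RT1 class I genes, all 6 genes of the light chain, transport and loading group, all 3 immunoproteasome subunits, both PA28 subunits, Psme4 and Psma3. The median log2 fold change of the 59 was 1.61, against 0.00 for all genes tested. In Yap siRNA 20 were called higher and 1 lower (all genes 3.02% and 1.78%), and in Wwtr1 siRNA 24 were called higher and none lower (all genes 5% and 3.96%). The 3 comparisons share the negative siRNA libraries, and 19 genes were called higher in all 3: B2m, Psmb8, Psme1, Tap1, Tap2 and 14 RT1 class I genes. How many of all genes were called higher in all 3 was not counted, so the 19 are given as a list only. In bulk RNA, more cells of a type and more RNA per cell cannot be told apart.

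**Figure D1:**
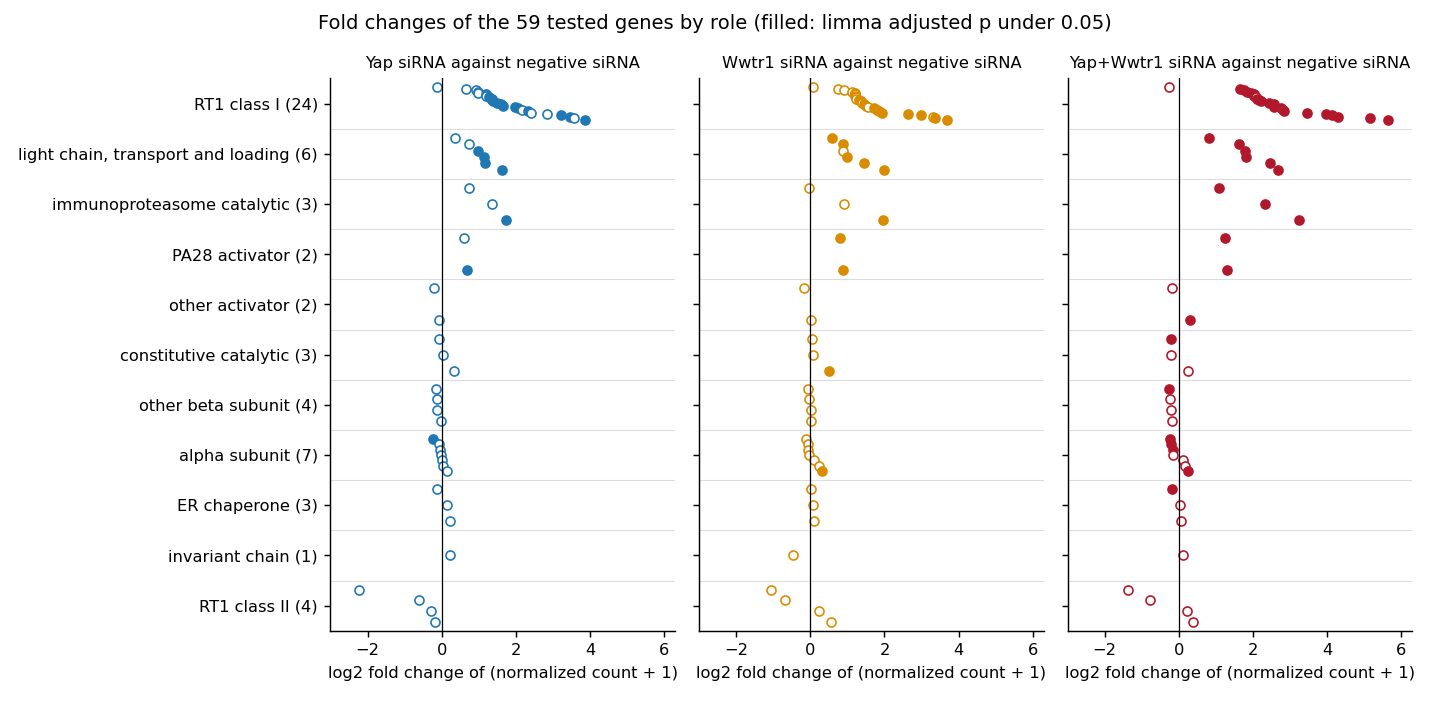
Log2 fold change of (normalized count + 1) for the 59 tested genes (x axis) by role (rows, number of genes in brackets) in Yap, Wwtr1 and Yap+Wwtr1 siRNA, each against negative siRNA. Each point is 1 gene and filled points have a limma adjusted p under 0.05. In the double knockdown the upper 4 rows lie between 0.81 and 5.64 except for RT1-M6-2 at -0.27, and the 14 constitutive core subunits lie between -0.26 and 0.25.

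The light chain and the transport and loading genes were higher in all 3 double knockdown libraries than in any negative library. B2m, the light chain shared by all class I molecules, was read at 22277, 25382 and 20244 normalized counts in negative siRNA, 60981, 40528 and 35424 in Yap siRNA, 65528, 44719 and 30247 in Wwtr1 siRNA, and 64286, 70817 and 71939 in Yap+Wwtr1 siRNA. B2m rose by 1.61 ± 0.25 (adjusted p = 0.0005) on the log2 scale in the double knockdown, 0.98 ± 0.25 (adjusted p = 0.0449) in Yap siRNA and 0.98 ± 0.25 (adjusted p = 0.029) in Wwtr1 siRNA. The single knockdown groups lay above all negative libraries and Wwtr1 siRNA replicate 1 lay within the range of the double knockdown.

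Tap1, one chain of the peptide transporter, was read at 707, 1336 and 918 normalized counts in negative siRNA, 4525, 2832 and 2024 in Yap siRNA, 5568, 4455 and 2203 in Wwtr1 siRNA, and 5731, 7332 and 5313 in Yap+Wwtr1 siRNA. It changed by 2.67 ± 0.35 (adjusted p = 0.000201) in the double knockdown, by 1.99 ± 0.35 (adjusted p = 0.0053) in Wwtr1 siRNA and by 1.63 ± 0.35 (adjusted p = 0.0272) in Yap siRNA on the log2 scale. No Tap1 value of a knockdown library reached down to the negative libraries. Tap2, the other transporter chain, was read at 597, 647 and 462 normalized counts in negative siRNA, 1742, 1239 and 909 in Yap siRNA, 2203, 1754 and 947 in Wwtr1 siRNA, and 3199, 3402 and 2781 in Yap+Wwtr1 siRNA. Its log2 fold changes were 2.47 ± 0.29 (adjusted p = 8.87e-05), 1.45 ± 0.29 (adjusted p = 0.00879) and 1.15 ± 0.29 (adjusted p = 0.0444) in the double, Wwtr1 and Yap knockdowns, and the 3 double knockdown libraries lay above all 6 single knockdown libraries.

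Tapbp encodes tapasin, which bridges the transporter to the class I heavy chain. It was read at 1345, 1841 and 1156 normalized counts in negative siRNA, 4475, 3353 and 2174 in Yap siRNA, 3369, 2969 and 1783 in Wwtr1 siRNA, and 4931, 5589 and 4208 in Yap+Wwtr1 siRNA. It rose by 1.78 ± 0.28 (adjusted p = 0.000599) in the double knockdown and by 1.17 ± 0.28 (adjusted p = 0.0389) in Yap siRNA on the log2 scale, and the difference in Wwtr1 siRNA was 0.88 ± 0.28 (adjusted p = 0.0737). Tapbpl encodes the tapasin-related protein TAPBPR, an editor of the bound peptide. It was read at 674, 691 and 595 normalized counts in negative siRNA, 1329.8, 1131 and 869 in Yap siRNA, 1689, 1160.3 and 865 in Wwtr1 siRNA, and 2434, 2414 and 2090.2 in Yap+Wwtr1 siRNA. Its log2 fold change was 1.82 ± 0.21 (adjusted p = 8.35e-05) in the double knockdown, 0.87 ± 0.21 (adjusted p = 0.024) in Wwtr1 siRNA and 0.74 ± 0.21 (adjusted p = 0.0676) in Yap siRNA. Erap1, the ER aminopeptidase that trims peptides to the length class I binds, showed the smallest change of the 6. It was read at 3679.8, 4464 and 3503 normalized counts in negative siRNA, 5389, 5167 and 4255 in Yap siRNA, 6493, 6183 and 4802 in Wwtr1 siRNA, and 7034, 7188 and 6128 in Yap+Wwtr1 siRNA. The log2 fold changes of Erap1 were 0.81 ± 0.13 (adjusted p = 0.000812), 0.58 ± 0.13 (adjusted p = 0.0185) and 0.35 ± 0.13 (adjusted p = 0.17) in the double, Wwtr1 and Yap knockdowns. A second fit took the replicate number as a block in the 3 paired groups (negative, Yap and Wwtr1 siRNA). In it 16% of all genes were called in Yap siRNA, 21.3% in Wwtr1 siRNA and 22.6% when these 2 were compared. Here Tapbpl and Erap1 were also called in Yap siRNA (adjusted p = 0.00317 and 0.0113) and Tapbp in Wwtr1 siRNA (adjusted p = 0.0018).

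**Figure D2:**
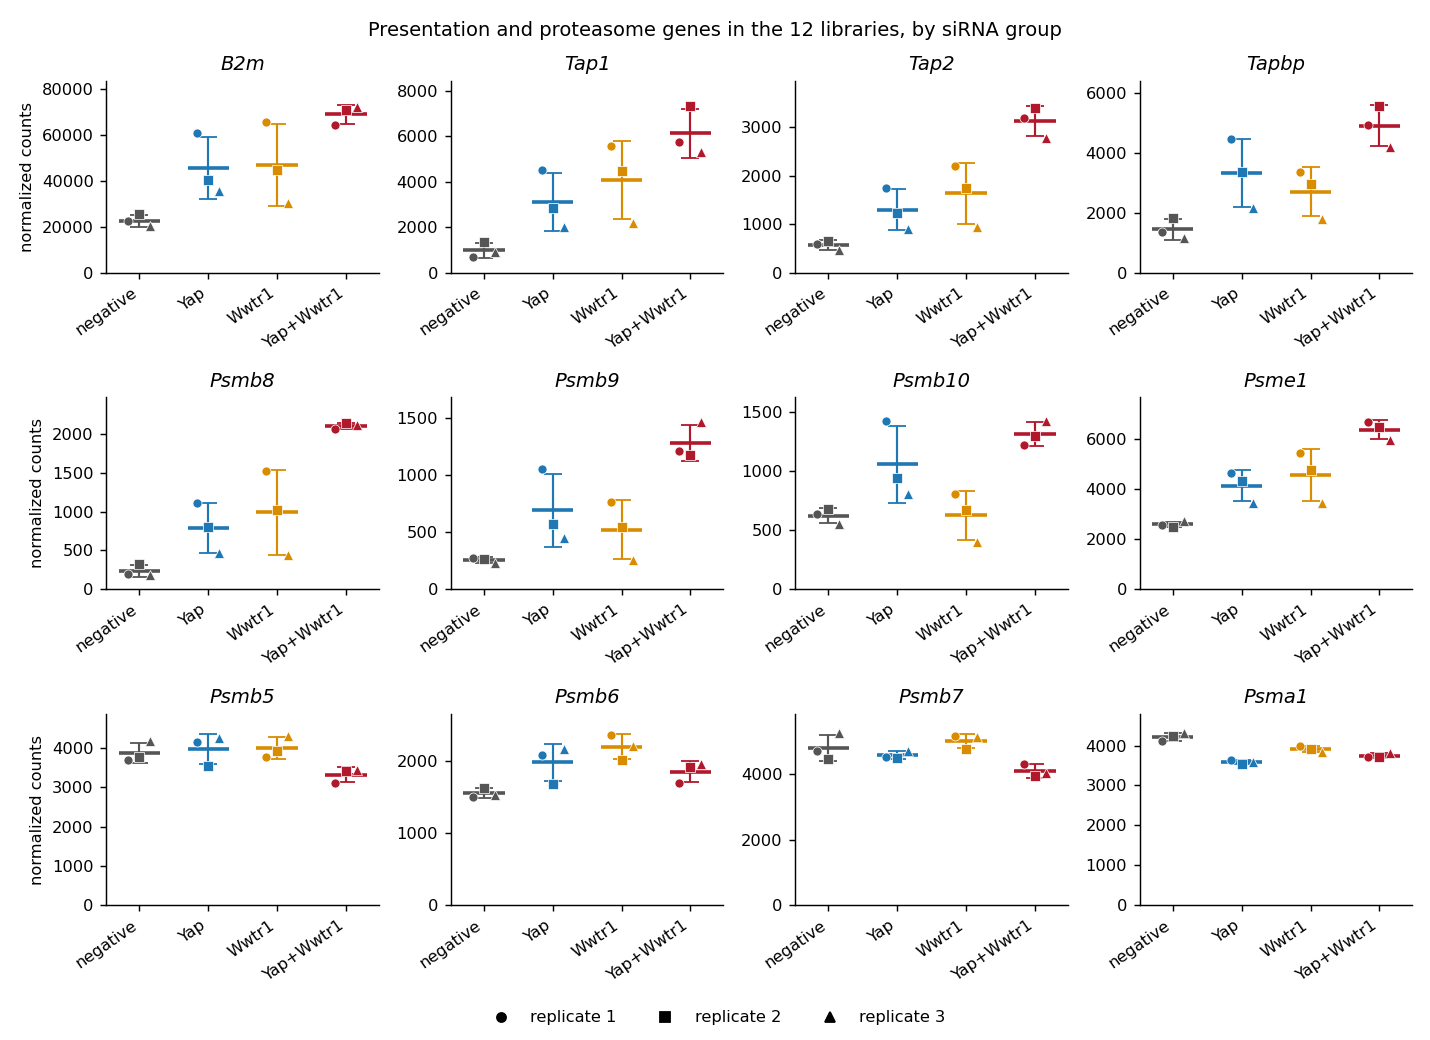
Normalized counts (y axes, each from 0) of 12 genes by siRNA group (x axis). Symbols are the 3 libraries of a group by replicate number, thick lines the mean and whiskers the SD; the top 2 rows hold presentation, immunoproteasome and PA28 genes, which are highest on average in the double knockdown, and the bottom row holds 4 constitutive subunits on axes that likewise start at 0.

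All 3 immunoproteasome subunits rose in the double knockdown, and Psmb8 alone was called in the single knockdowns. Psmb8, which takes the place of Psmb5, was read at 196, 323 and 179 normalized counts in negative siRNA, 1112, 800.0 and 465 in Yap siRNA, 1529, 1017 and 434 in Wwtr1 siRNA, and 2068, 2151 and 2114 in Yap+Wwtr1 siRNA. Its log2 fold change was 3.23 ± 0.41 (adjusted p = 0.000155) in the double knockdown, a 9.36-fold rise, with 1.73 ± 0.41 (adjusted p = 0.0389) in Yap siRNA and 1.96 ± 0.41 (adjusted p = 0.0121) in Wwtr1 siRNA. The double knockdown libraries were close to each other and lay above every other library.

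Psmb9, which takes the place of Psmb6, was read at 273, 264 and 228 normalized counts in negative siRNA, 1055, 574 and 447 in Yap siRNA, 769, 543 and 256 in Wwtr1 siRNA, and 1209, 1176 and 1469.8 in Yap+Wwtr1 siRNA. It changed by 2.33 ± 0.36 (adjusted p = 0.000559) in the double knockdown, and the differences of 1.34 ± 0.36 (adjusted p = 0.0567) in Yap siRNA and 0.90 ± 0.36 (adjusted p = 0.156) in Wwtr1 siRNA were not called. In the fit with the replicate block both were (adjusted p = 0.00235 and 0.0143). Psmb10, which takes the place of Psmb7, was read at 635, 678 and 552 normalized counts in negative siRNA, 1424, 936 and 805 in Yap siRNA, 807, 666 and 401 in Wwtr1 siRNA, and 1215, 1299 and 1421 in Yap+Wwtr1 siRNA. Its log2 fold change was 1.08 ± 0.24 (adjusted p = 0.00548) in the double knockdown and 0.72 ± 0.24 (adjusted p = 0.122) in Yap siRNA, the latter called with the replicate block (adjusted p = 0.00898). Psmb10 in Wwtr1 siRNA differed from negative siRNA by -0.05 ± 0.24 (adjusted p = 0.934), with a 95% interval of -0.58 to 0.48, and the 2 groups overlapped. Yap siRNA minus Wwtr1 siRNA for Psmb10 was 0.77 ± 0.24 (adjusted p = 0.0719), called with the replicate block at an adjusted p of 0.00511.

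Psme1, the alpha subunit of the PA28 cap, was read at 2575, 2479 and 2706 normalized counts in negative siRNA, 4658, 4318 and 3456 in Yap siRNA, 5462, 4778 and 3447 in Wwtr1 siRNA, and 6695, 6487 and 5948 in Yap+Wwtr1 siRNA. It rose by 1.30 ± 0.15 (adjusted p = 8.35e-05) in the double knockdown, 0.79 ± 0.15 (adjusted p = 0.00697) in Wwtr1 siRNA and 0.67 ± 0.15 (adjusted p = 0.0301) in Yap siRNA on the log2 scale. Psme2, its beta subunit, was read at 2393, 2738 and 2445 normalized counts in negative siRNA, 4625, 3690.4 and 3268 in Yap siRNA, 5842, 4908 and 3501 in Wwtr1 siRNA, and 6243, 6407 and 5381 in Yap+Wwtr1 siRNA. The corresponding values for Psme2 were 1.25 ± 0.17 (adjusted p = 0.000229), 0.88 ± 0.17 (adjusted p = 0.00765) and 0.60 ± 0.17 (adjusted p = 0.0689), and the last was called with the replicate block (adjusted p = 0.0073). The lowest single knockdown value of either gene lay above its highest negative value.

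The constitutive catalytic subunits moved little. Psmb5, which carries the chymotrypsin-like activity, was read at 3701, 3777 and 4176 normalized counts in negative siRNA, 4158, 3544 and 4249 in Yap siRNA, 3773, 3918 and 4314 in Wwtr1 siRNA, and 3103, 3417 and 3453 in Yap+Wwtr1 siRNA. None of its 3 comparisons with negative siRNA was called, with a log2 fold change of -0.22 ± 0.09 (adjusted p = 0.0678) in the double knockdown, although the 3 double knockdown libraries were the lowest of the 12. Psmb6 was read at 1505, 1637 and 1539 normalized counts in negative siRNA, 2092, 1692 and 2172 in Yap siRNA, 2371, 2024 and 2214 in Wwtr1 siRNA, and 1697, 1916 and 1963 in Yap+Wwtr1 siRNA. It rose by 0.49 ± 0.10 (adjusted p = 0.0112) on the log2 scale in Wwtr1 siRNA, a call that was lost without Wwtr1 siRNA replicate 1 (adjusted p = 0.0548), and differed by 0.25 ± 0.10 (adjusted p = 0.0822) in the double knockdown and 0.34 ± 0.10 (adjusted p = 0.0871) in Yap siRNA (with the replicate block, adjusted p = 0.0277). Psmb7 was read at 4684, 4458 and 5236 normalized counts in negative siRNA, 4525, 4470.1 and 4713 in Yap siRNA, 5149, 4751 and 5115 in Wwtr1 siRNA, and 4315, 3922 and 4029 in Yap+Wwtr1 siRNA. It fell in the double knockdown, with a log2 fold change of -0.23 ± 0.07 (adjusted p = 0.0295) that lost its call when 1 of 4 libraries was left out: negative replicate 1 or 3 or double knockdown replicate 2 or 3 (highest adjusted p = 0.13).

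Over the 14 constitutive core subunits (7 alpha, 3 constitutive catalytic and 4 other beta), 1 was called higher and 5 lower in the double knockdown, with a median log2 fold change of -0.19 and a range of -0.26 to 0.25. The 5 induced genes Psmb8, Psmb9, Psmb10, Psme1 and Psme2 were all called higher, with a median of 1.30 and a range of 1.08 to 3.23, so the 2 ranges did not overlap. In Yap siRNA 2 of the 5 induced genes and none of the 14 core subunits were called higher, and 1 core subunit, Psma1, was called lower. In Wwtr1 siRNA 3 of the 5 were called higher, as were 2 core subunits, Psmb6 and Psma3. With the replicate block the core subunits Psmb6 in Yap siRNA and Psma4 in Wwtr1 siRNA were also called higher. Among the induced genes that fit added Psmb9, Psmb10 and Psme2 in Yap siRNA and Psmb9 in Wwtr1 siRNA. Psma3, a subunit of the outer ring, was the core subunit that rose in the double knockdown. It was read at 2148, 2427 and 2329.6 normalized counts in negative siRNA, 2543, 2634 and 2413 in Yap siRNA, 2851, 3075 and 2719 in Wwtr1 siRNA, and 3005, 2741 and 2489 in Yap+Wwtr1 siRNA, with log2 fold changes of 0.25 ± 0.08 (adjusted p = 0.0366) in the double knockdown and 0.32 ± 0.08 (adjusted p = 0.0327) in Wwtr1 siRNA. Among the core subunits that fell in the double knockdown (Psma1, Psma6, Psma7, Psmb2 and Psmb7), Psmb2 had the largest fall. It was read at 4976, 4790.0 and 4896 normalized counts in negative siRNA, 4789, 3853 and 4733 in Yap siRNA, 5052, 4615 and 4340.1 in Wwtr1 siRNA, and 4025, 4383 and 3875 in Yap+Wwtr1 siRNA, a log2 fold change of -0.26 ± 0.09 (adjusted p = 0.047). Psma1 was read at 4121, 4227 and 4318 normalized counts in negative siRNA, 3642, 3544 and 3579 in Yap siRNA, 3996, 3921 and 3831 in Wwtr1 siRNA, and 3704, 3717 and 3813 in Yap+Wwtr1 siRNA, with -0.23 ± 0.05 (adjusted p = 0.0294) in Yap siRNA. All 6 core subunit calls in the double knockdown were lost in at least 2 of the 12 fits that left out 1 library, with a highest adjusted p of 0.142 (Psma6 without negative replicate 3). The 5 induced genes were called in all 12 such fits.

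Each induced catalytic subunit was set against the subunit it displaces within the same library. Transcript lengths were not used, so only the change of a ratio between groups is read. Psmb8 was 5.30%, 8.55% and 4.28% of Psmb5 in negative siRNA, 26.7%, 22.6% and 10.9% in Yap siRNA and 40.5%, 26.0% and 10.1% in Wwtr1 siRNA. The double knockdown libraries had 66.6%, 62.9% and 61.2%. Psmb9 was 18.1%, 16.1% and 14.8% of Psmb6 in negative siRNA, 50.4%, 33.9% and 20.6% in Yap siRNA and 32.4%, 26.8% and 11.6% in Wwtr1 siRNA. The double knockdown libraries had 71.3%, 61.4% and 74.9%. Psmb10 was 13.6%, 15.2% and 10.5% of Psmb7 in negative siRNA, 31.5%, 20.9% and 17.1% in Yap siRNA and 15.7%, 14.0% and 7.85% in Wwtr1 siRNA. The double knockdown libraries had 28.2%, 33.1% and 35.3%. In the double knockdown the log2 ratio was higher than in negative siRNA by 3.45 for Psmb8 to Psmb5, 2.08 for Psmb9 to Psmb6 and 1.31 for Psmb10 to Psmb7, with no overlap between the groups. Each of these had p = 0.1 in a two-sided exact permutation test, which is the smallest p that 3 libraries against 3 can give. The differences in Yap siRNA were 1.69, 1.00 and 0.79, again without overlap (exact permutation p = 0.1 each). In Wwtr1 siRNA the Psmb8 ratio rose by 1.92 without overlap (exact permutation p = 0.1), and the differences for Psmb9 and Psmb10 were 0.40 (exact permutation p = 0.4) and -0.11 (exact permutation p = 0.9), with overlapping groups. The Psmb9 difference was 0.85 without overlap when Wwtr1 siRNA replicate 3 was left out, and 0.11 when replicate 1 was left out.

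**Figure D3:**
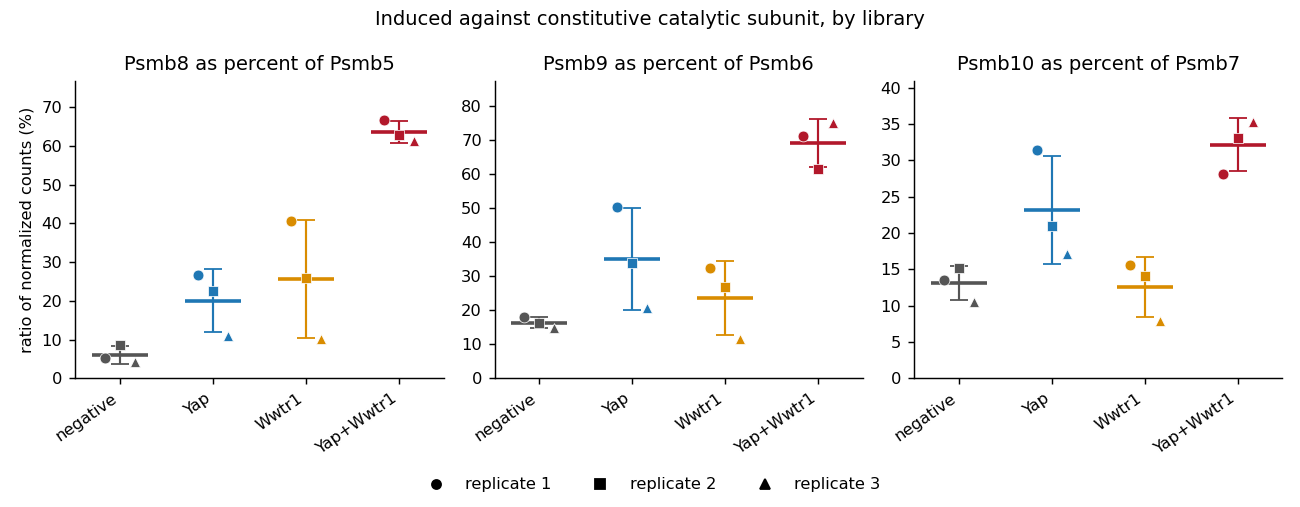
Normalized count of an induced catalytic subunit as a percentage of the constitutive subunit it displaces (y axes, each from 0) by siRNA group (x axis). Symbols are libraries by replicate number, thick lines means and whiskers SD. The double knockdown libraries lie above all negative libraries in each panel, and Wwtr1 siRNA overlaps negative siRNA for Psmb9 and Psmb10.

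Among the remaining proteasome and chaperone genes the changes were small. Psme4, which encodes the PA200 activator, was the largest rise among these other members in the double knockdown. It was read at 7011, 8093 and 7338 normalized counts in negative siRNA, 6512, 7699 and 7036 in Yap siRNA, 7058, 6909 and 6058 in Wwtr1 siRNA, and 9800.4, 9663 and 8280.1 in Yap+Wwtr1 siRNA. Its log2 fold change was 0.30 ± 0.09 (adjusted p = 0.0266) against negative siRNA, lost without negative replicate 1 or 3 or double knockdown replicate 1 or 2 (highest adjusted p = 0.0917), and 0.47 ± 0.09 (adjusted p = 0.00519) against Wwtr1 siRNA, kept in every such fit. Psme3, the PA28 gamma subunit of the nucleus, ranged from 4318 to 5944 over the 12 libraries and was not called in any comparison with negative siRNA. Canx (calnexin), a lectin chaperone of newly made heavy chains, was read at 29569.9, 30887 and 31317 normalized counts in negative siRNA, 26996, 28744 and 28547 in Yap siRNA, 31401, 31518 and 30219 in Wwtr1 siRNA, and 26948, 27106 and 26686 in Yap+Wwtr1 siRNA. Its log2 change was -0.18 ± 0.06 (adjusted p = 0.0273) in the double knockdown, and -0.21 ± 0.06 (adjusted p = 0.0258) against Wwtr1 siRNA. The first call was lost without negative replicate 2 or 3 or double knockdown replicate 1 or 2 (highest adjusted p = 0.0936), and the second without any 1 of the Wwtr1 siRNA libraries or double knockdown replicate 1 or 2 (highest adjusted p = 0.0919). Calr (calreticulin) and Pdia3 (the disulfide isomerase ERp57), which sit in the loading complex beside tapasin, were not called in the double knockdown, with log2 fold changes of 0.07 ± 0.10 and 0.04 ± 0.07. Calr in Yap siRNA, at 0.22, was called with the replicate block alone (adjusted p = 0.0255).

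RT1 class I genes encode the heavy chains and their nonclassical relatives. Of the 24 tested, 21 were called higher in the double knockdown with a median log2 fold change of 2.50, 14 in Yap siRNA with a median of 1.54 and 14 in Wwtr1 siRNA with a median of 1.42, and none was called lower. With the replicate block 19 were called higher in Yap siRNA, adding RT1-CE3, RT1-CE14, RT1-CE15, RT1-CE16 and RT1-M3-1, and 18 in Wwtr1 siRNA, adding RT1-CE14, RT1-CE15, RT1-CE16 and RT1-N2. RT1 genes are near-identical copies of one another in places, so reads could be split or assigned between copies by the authors' counting, and the value of a single RT1 gene is uncertain on that account.

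RT1-T24-3, RT1-T24-4, RT1-S3 and RT1-T24-1, nonclassical class I genes, had the 4 largest estimates in the double knockdown. RT1-T24-3 was read at 83.1, 201 and 62.0 normalized counts in negative siRNA, 2365, 1525 and 899 in Yap siRNA, 2479, 1774 and 518 in Wwtr1 siRNA, and 4519, 5924 and 4903 in Yap+Wwtr1 siRNA. On the log2 scale it rose by 5.64 ± 0.55 (adjusted p = 3.35e-05) in the double knockdown, 3.86 ± 0.55 (adjusted p = 0.00459) in Yap siRNA and 3.69 ± 0.55 (adjusted p = 0.00218) in Wwtr1 siRNA. RT1-T24-4 was read at 160.1, 329.9 and 126 normalized counts in negative siRNA, 2183, 1956 and 1295 in Yap siRNA, 2965, 2525 and 973 in Wwtr1 siRNA, and 7197, 7988 and 5209 in Yap+Wwtr1 siRNA, with 5.14 ± 0.42 (adjusted p = 1.1e-05), 3.22 ± 0.42 (adjusted p = 0.00371) and 3.36 ± 0.42 (adjusted p = 0.000956). The lowest double knockdown value of RT1-T24-4 lay above all 6 single knockdown values, and its rise over each single knockdown was called (1.92 ± 0.42 (adjusted p = 0.0113) over Yap siRNA and 1.79 ± 0.42 (adjusted p = 0.0118) over Wwtr1 siRNA).

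RT1-S3 was read at 233, 643 and 161 normalized counts in negative siRNA, 4752, 3481 and 1921 in Yap siRNA, 3901, 2758 and 1124 in Wwtr1 siRNA, and 5465, 6199 and 5323 in Yap+Wwtr1 siRNA, with 4.28 ± 0.52 (adjusted p = 0.000116) in the double knockdown, 3.45 ± 0.52 (adjusted p = 0.0055) in Yap siRNA and 2.98 ± 0.52 (adjusted p = 0.0046) in Wwtr1 siRNA. RT1-T24-1 was read at 22.6, 110.0 and 47.5 normalized counts in negative siRNA, 334, 298 and 160.3 in Yap siRNA, 576, 323 and 159 in Wwtr1 siRNA, and 973, 1086 and 648 in Yap+Wwtr1 siRNA, with 4.13 ± 0.55 (adjusted p = 0.000201) in the double knockdown. RT1-N3 was read at 462, 576 and 497 normalized counts in negative siRNA, 1796, 1297 and 1039 in Yap siRNA, 2564, 2166 and 1152 in Wwtr1 siRNA, and 2297, 2636 and 2145 in Yap+Wwtr1 siRNA, with 2.20 ± 0.26 (adjusted p = 9.83e-05), 1.40 ± 0.26 (adjusted p = 0.0138) and 1.86 ± 0.26 (adjusted p = 0.00147) in the double, Yap and Wwtr1 knockdowns. For RT1-N3 the Wwtr1 siRNA replicates 1 and 2 were as high as the double knockdown libraries, and the difference between the double knockdown and Wwtr1 siRNA was 0.34 ± 0.26 (adjusted p = 0.397).

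RT1-A1 and RT1-A2 encode classical heavy chains of the RT1-A region. RT1-A1 was read at 712, 631 and 438 normalized counts in negative siRNA, 1866, 1509 and 1015 in Yap siRNA, 2231, 1589 and 858 in Wwtr1 siRNA, and 2665, 2564 and 2617 in Yap+Wwtr1 siRNA, a log2 fold change of 2.17 ± 0.31 (adjusted p = 0.000322) in the double knockdown. RT1-A2 was read at 875, 1029.6 and 818 normalized counts in negative siRNA, 3298, 2397 and 1567 in Yap siRNA, 3347, 2316 and 1169.6 in Wwtr1 siRNA, and 4508, 4996 and 5229.9 in Yap+Wwtr1 siRNA, a log2 fold change of 2.44 ± 0.33 (adjusted p = 0.000208). Both were also called in Yap siRNA (1.29 ± 0.31 and 1.36 ± 0.33) and Wwtr1 siRNA (1.31 ± 0.31 and 1.21 ± 0.33), with replicate 3 the lowest library of each single knockdown.

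The RT1-CE genes form a cluster of class I copies. RT1-CE5 was read at 951, 1327 and 899 normalized counts in negative siRNA, 3231, 2446 and 1723 in Yap siRNA, 3739, 2419.6 and 1581 in Wwtr1 siRNA, and 4799, 4467 and 4324 in Yap+Wwtr1 siRNA, with 2.12 ± 0.28 (adjusted p = 0.000208) in the double knockdown. RT1-CE10 was read at 335, 436 and 239.8 normalized counts in negative siRNA, 1233, 1045 and 595 in Yap siRNA, 1409, 1094 and 464 in Wwtr1 siRNA, and 2072, 1865 and 1870.0 in Yap+Wwtr1 siRNA, with 2.56 ± 0.37 (adjusted p = 0.000365). RT1-CE7 was read at 134, 426 and 226 normalized counts in negative siRNA, 1375, 1082 and 537 in Yap siRNA, 1072, 1138 and 458 in Wwtr1 siRNA, and 1813, 1843 and 1452 in Yap+Wwtr1 siRNA, with 2.84 ± 0.45 (adjusted p = 0.00064). All double knockdown values of these 3 copies lay above every other library, and each copy was called in both single knockdowns. RT1-CE4 was read at 123, 269 and 126 normalized counts in negative siRNA, 691, 479 and 357 in Yap siRNA, 941, 575 and 284 in Wwtr1 siRNA, and 1167, 1274 and 895 in Yap+Wwtr1 siRNA, with 2.76 ± 0.41 (adjusted p = 0.000432). RT1-CE1 was read at 138, 179 and 152 normalized counts in negative siRNA, 506, 472 and 263 in Yap siRNA, 576, 531 and 210.3 in Wwtr1 siRNA, and 821, 1136 and 826 in Yap+Wwtr1 siRNA, with 2.55 ± 0.35 (adjusted p = 0.000246). These were called in both single knockdowns as well, at 1.60 and 1.35 in Yap siRNA and 1.73 and 1.36 in Wwtr1 siRNA on the log2 scale.

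RT1-CE14 and RT1-CE16 were called in the double knockdown alone among the 3 comparisons with negative siRNA. RT1-CE14 was read at 199, 341 and 185 normalized counts in negative siRNA, 624, 525 and 293 in Yap siRNA, 680.3, 597 and 315 in Wwtr1 siRNA, and 881, 1226 and 808 in Yap+Wwtr1 siRNA, with 2.04 ± 0.35 (adjusted p = 0.00101). RT1-CE16 was read at 454, 146 and 348 normalized counts in negative siRNA, 1141, 356 and 701 in Yap siRNA, 1317, 311 and 729 in Wwtr1 siRNA, and 1659.9, 534 and 1519 in Yap+Wwtr1 siRNA, with 1.95 ± 0.62 (adjusted p = 0.0304). In every group replicate 2 was the lowest library for RT1-CE16. With the replicate block RT1-CE16 was called in both single knockdowns (adjusted p = 0.000143 in Yap siRNA and 8.02e-05 in Wwtr1 siRNA), as was RT1-CE14 (adjusted p = 0.00789 and 0.00287). In the fit without a block the call of RT1-CE16 in the double knockdown was lost without negative replicate 2 or 3 or double knockdown replicate 1 or 3 (highest adjusted p = 0.116). RT1-N2 was read at 7.18, 52.0 and 26.9 normalized counts in negative siRNA, 124, 211 and 39.8 in Yap siRNA, 604, 316 and 58.9 in Wwtr1 siRNA, and 771, 530.1 and 112 in Yap+Wwtr1 siRNA, with 3.97 ± 0.99 (adjusted p = 0.00927), and RT1-M3-1, which in mouse presents formylated peptides, was read at 210.4, 207 and 190.2 normalized counts in negative siRNA, 539.9, 352 and 293 in Yap siRNA, 677, 322 and 181 in Wwtr1 siRNA, and 1025, 570.3 and 441 in Yap+Wwtr1 siRNA, with 1.65 ± 0.42 (adjusted p = 0.0107). Both spread widely within the treated groups, and replicate 3 was the lowest library of each knockdown group for both.

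The RT1 class I genes that were not called in the double knockdown were RT1-A3, RT1-S2 and RT1-M6-2. RT1-A3 was listed at 0 in 4 of the 12 libraries and had an SE of 2.20 on the log2 scale. RT1-S2 ranged from 0 to 28.6 normalized counts. RT1-M6-2 ranged from 35.9 to 98.5, with a log2 fold change of -0.27 ± 0.36 in the double knockdown.

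**Figure D4:**
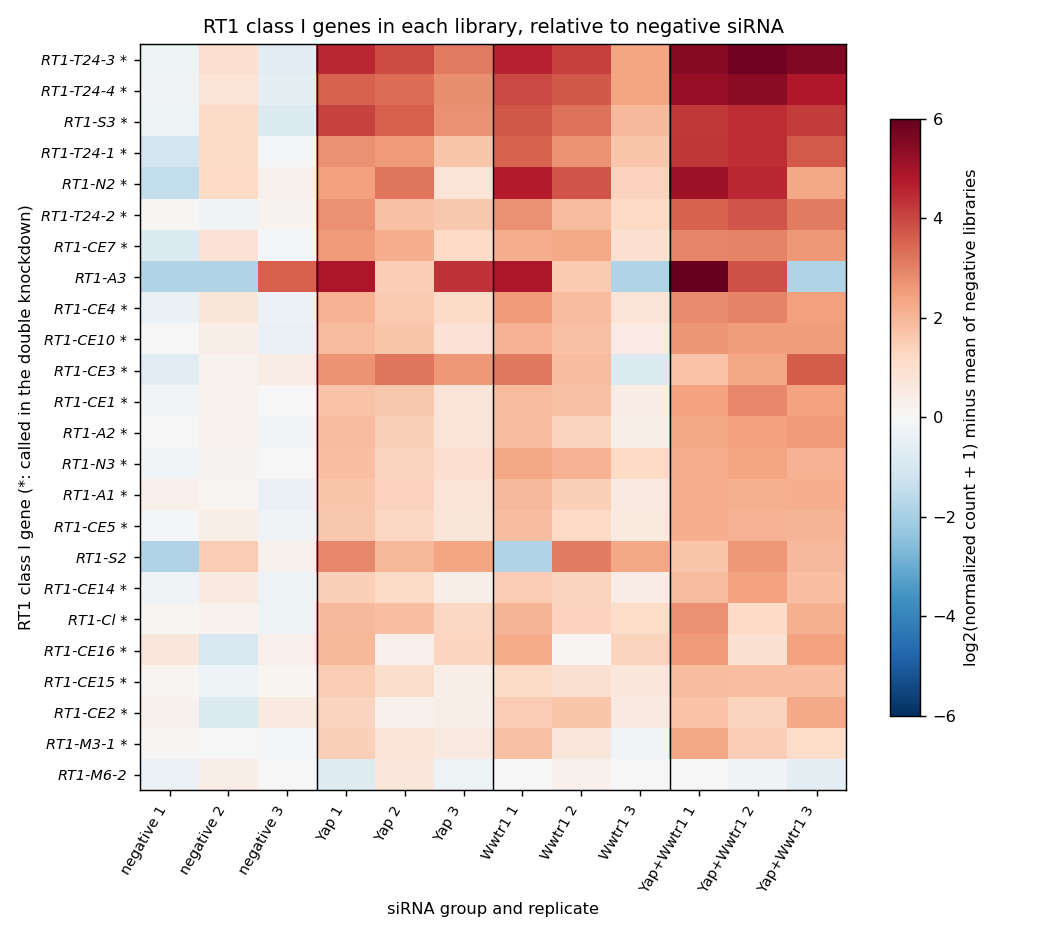
Heat map of the 24 tested RT1 class I genes (rows, ordered by log2 fold change in the double knockdown) in the 12 libraries (columns). Colour is log2(normalized count + 1) minus the mean of the 3 negative libraries, from blue (lower) to red (higher), and asterisks mark the 21 genes called in the double knockdown. The double knockdown columns are the darkest red in most rows, and replicate 3 is the palest column of the single knockdowns.

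Class II genes did not follow. RT1-DMa and RT1-DMb encode the chaperone that loads class II molecules. RT1-DMa was read at 1322, 1073 and 957 normalized counts in negative siRNA, 1034, 952 and 741 in Yap siRNA, 592, 741 and 732 in Wwtr1 siRNA, and 326, 522 and 1539 in Yap+Wwtr1 siRNA, and RT1-DMb at 1286, 865 and 854 normalized counts in negative siRNA, 748, 635 and 557 in Yap siRNA, 279.6, 683 and 544 in Wwtr1 siRNA, and 127, 293 and 1477 in Yap+Wwtr1 siRNA. The log2 fold changes in the double knockdown were -0.79 ± 0.41 (adjusted p = 0.163) and -1.37 ± 0.66 (adjusted p = 0.135), with double knockdown replicates 1 and 2 below all negative libraries and replicate 3 above them. Without double knockdown replicate 3 both were called lower, at log2 fold changes of -1.42 (adjusted p = 0.00048) and -2.34 (adjusted p = 0.00088). In Wwtr1 siRNA the differences were -0.69 and -1.06, called with the replicate block (adjusted p = 0.00623 and 0.0236). Cd74, the invariant chain, was read at 43.1, 67.0 and 135 normalized counts in negative siRNA, 97.3, 71.8 and 90.1 in Yap siRNA, 42.8, 41.8 and 83.3 in Wwtr1 siRNA, and 31.8, 85.3 and 181 in Yap+Wwtr1 siRNA, with a log2 fold change of 0.11 ± 0.57 (adjusted p = 0.904). For Cd74 the log2 fold change without double knockdown replicate 3 was -0.48 (limma adjusted p = 0.508). Ciita, the master regulator of class II genes, had a highest value of 24.6, and RT1-Da and RT1-Db1, the alpha and beta chain genes of the class II D molecule, had highest values of 28.9 and 34.6 normalized counts.

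Macrophages, which carry class II molecules, were looked for by 17 myeloid markers, of which 16 were tested. Their summed level was 31127 to 44631 normalized counts in negative siRNA, 26763 to 39203 in Yap siRNA, 16827 to 26997 in Wwtr1 siRNA, and 9696, 18990 and 64558 in double knockdown replicates 1, 2 and 3. None of the 16 was called higher in any of the 3 comparisons with negative siRNA and Cx3cr1 was called lower in the double knockdown. The library with the highest myeloid level was also the highest for RT1-DMa and RT1-DMb, and in the fit without it, which called 17% of all genes higher and 17.3% lower, 15 of the 16 myeloid markers were called lower. Of the 34 genes that rose in the double knockdown, that library was the lowest of its group for 20 and the highest for 6, B2m, Psmb9, Psmb10 and RT1-A2 among them. Over all genes tested it was the lowest for 38.4% and the highest for 37.7%. Without that library 32 of 58 tested genes were called higher, with log2 fold changes of 1.58 for B2m and 3.23 for Psmb8. The 8 B cell and dendritic markers were not analysed here, and of 6 T and NK cell markers 1 was tested and not called. In the double knockdown, beside 17.1% of all genes called higher and 15.6% lower, 5 of 9 endothelial markers, 3 of 10 cardiomyocyte markers and 4 of 10 fibroblast markers were called higher, and 2 fibroblast markers lower. Without double knockdown replicate 3 the counts called higher were 3 of 8 endothelial, 1 of 10 cardiomyocyte and 4 of 10 fibroblast markers, 2 fibroblast markers were again called lower, and the T and NK cell marker was called lower at a log2 fold change of -1.70. Summed endothelial markers ran from 1245 to 1656 normalized counts in negative siRNA and from 2109 to 2899 in the double knockdown, and all 10 fibroblast markers, among them Col1a1, Pdgfra and Ddr2, passed the minimum mean. The part of cell mixture in the class I result was not tested.

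The strength of the response differed between libraries of the same single knockdown. For each of the 34 genes that rose in the double knockdown, the log2 difference from the negative mean was taken in every library. Its median was 1.76, 1.29 and 0.80 in the Yap siRNA libraries, 1.91, 1.42 and 0.55 in the Wwtr1 siRNA libraries, with 2.28, 2.25 and 2.28 in the double knockdown, against -0.08, 0.20 and -0.14 in the negative libraries. The double knockdown values describe genes chosen in that contrast. Replicate 3 was the lowest of its group for 31 of the 34 genes in Yap siRNA and for 33 in Wwtr1 siRNA, where it was lowest for 32.1% and 35.4% of all genes tested. The remaining Yap1 or Wwtr1 transcript of the targeted gene was highest in the same replicate 3 of each single knockdown, at 532, 576 and 625 for Yap1 in Yap siRNA and 524, 550.0 and 637 for Wwtr1 in Wwtr1 siRNA. In the double knockdown, replicate 3 had the most Yap1 and Wwtr1 transcript of its group, and its median was 2.28. Whether the amount left has a part in this was not tested. Over the 14 core subunits the median difference stayed between -0.19 and 0.08 in all 12 libraries.

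**Figure D5:**
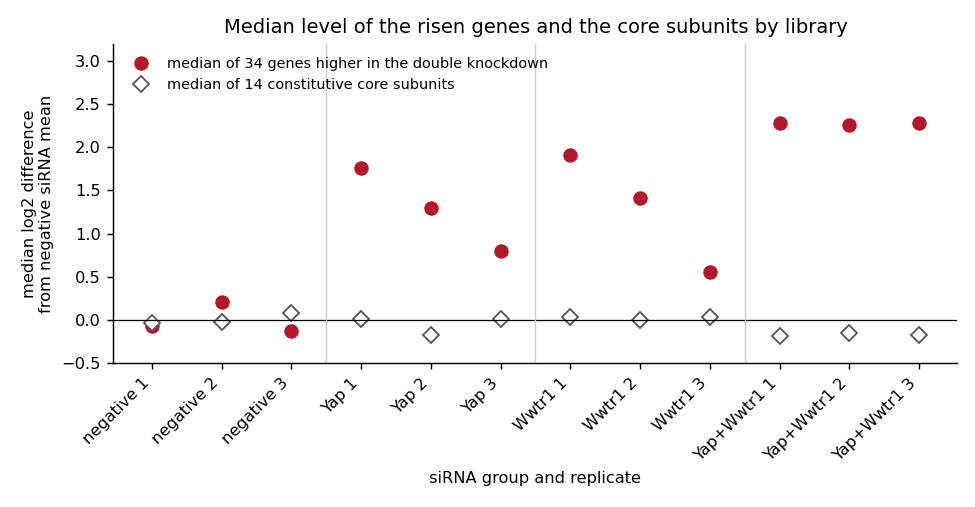
Median log2 difference from the mean of the negative siRNA libraries (y axis) in each of the 12 libraries (x axis). Filled circles are the median of the 34 genes called higher in the double knockdown and open diamonds the median of the 14 constitutive core subunits. The circles stand at 0.55 to 1.91 in the single knockdowns and at 2.25 to 2.28 in the double knockdown, and the diamonds stay within 0.19 of 0.

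The double knockdown was compared with each single knockdown. Against Yap siRNA 13 of the 59 genes were called (12 higher, 1 lower), where 13.8% of all genes were called, and against Wwtr1 siRNA 18 were called (15 higher, 3 lower), where 19.9% of all genes were called. Called higher against negative siRNA and against both single knockdowns were 9 genes: Psmb8, Psme1, Psme4, Tap2, Tapbpl, RT1-A2, RT1-CE1, RT1-T24-2 and RT1-T24-4. The same overlap over all genes was not counted, and these comparisons share the double knockdown libraries, so the 9 are given as a list only. Tapbpl exceeded Yap siRNA by 1.08 ± 0.21 (adjusted p = 0.0066) and Wwtr1 siRNA by 0.95 ± 0.21 (adjusted p = 0.00859) on the log2 scale. Tap2 exceeded them by 1.31 ± 0.29 (adjusted p = 0.0113) and 1.02 ± 0.29 (adjusted p = 0.028), and Psmb8 by 1.50 ± 0.41 (adjusted p = 0.0332) and 1.27 ± 0.41 (adjusted p = 0.0496). Psmb10 exceeded Wwtr1 siRNA by 1.12 ± 0.24 (adjusted p = 0.00787) and differed from Yap siRNA by 0.35 ± 0.24 (adjusted p = 0.368). Psmb7 was lower than in Wwtr1 siRNA, by -0.29 ± 0.07 (adjusted p = 0.0145), and Psma7, the gene called lower against Yap siRNA, was read at 5472, 5334 and 6061 normalized counts in negative siRNA, 5651, 5464 and 5685 in Yap siRNA, 5569.8, 5371 and 5351 in Wwtr1 siRNA, and 5004, 4342 and 4914 in Yap+Wwtr1 siRNA, a difference of -0.24 ± 0.07 (adjusted p = 0.0427) that was no longer called in 8 of 12 omissions of a single library (highest adjusted p = 0.141). Over the 12 omissions of a single library these counts ran from 2 to 21 against Yap siRNA and from 4 to 23 against Wwtr1 siRNA. Against Yap siRNA 2 of the 59 were called without Yap siRNA replicate 3 (all genes 6.32%), 3 without double knockdown replicate 2 (9.47%), 4 without its replicate 1 (8.96%), 6 without Yap siRNA replicate 2 (10.8%), and 8 without negative replicate 1 (12.3%) or Wwtr1 siRNA replicate 2 (10.9%). Against Yap siRNA 21 were called without Wwtr1 siRNA replicate 3 (13.3%). Against Wwtr1 siRNA 4 were called without Wwtr1 siRNA replicate 3 (10.9%), 5 without double knockdown replicate 2 (15.5%), 7 without its replicate 1 (15.4%) and 9 without Wwtr1 siRNA replicate 2 (12.3%). Tapbpl was called against Yap siRNA, and Psmb10, Psme4, RT1-T24-4 and Tapbpl against Wwtr1 siRNA, in all 12 fits that left out 1 library.

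Between Yap siRNA and Wwtr1 siRNA none of the 59 genes was called by limma, where 8.79% of all genes were, and 6 had an unadjusted p under 0.05. The last count compares with 24.4% of all genes. DESeq2 on the recovered counts called 3 of the 59 and 13.8% of all genes, and edgeR called 0 and 8.63%. In the fit with the replicate block 4 were called: Psmb10 higher in Yap siRNA, and Psme3, Psma4 and Erap1 lower. For the interaction, which asks how far the double knockdown departed from adding up the single effects (log2 scale), none of the 59 was called by limma where 1.03% of all genes were, and 9 had an unadjusted p under 0.05, as did 14% of all genes. DESeq2 called 3 of them beside 4.32% of all genes, and edgeR 0 beside 0.859%. The interaction estimate was above 0 for 6088 of all 11871 genes tested and for 11 of the 59. It was below 0 for all 24 RT1 class I genes tested (median -0.55). It was above 0 for 2 of the 14 core subunits (median -0.10) and 1 of the 6 light chain, transport and loading genes. Of the 3 immunoproteasome subunits, Psmb9 and Psmb10 were above 0. All these estimates use the same negative libraries.

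The calls in the single knockdowns were less stable than those in the double knockdown. Leaving out 1 library at a time, 30 of the 40 double knockdown calls were made in all 12 fits, as were 9 of 24 Wwtr1 siRNA calls (Psme1, Psme2, Tap1, Tap2, RT1-N3, RT1-S3, RT1-T24-2, RT1-T24-3 and RT1-T24-4) and 3 of 21 Yap siRNA calls (RT1-S3, RT1-T24-3 and RT1-T24-4). How many calls among all genes were kept in every such fit was not counted, so this stability is not set against that of other genes. With all 12 libraries 4.8% of all genes were called in Yap siRNA and 8.96% in Wwtr1 siRNA. Over the 12 omissions the number of the 59 called ran from 3 to 25 and from 9 to 29. The number of the 59 called in Yap siRNA fell to 3 without negative replicate 3 (all genes 1.15%) or Yap siRNA replicate 1 (0.935%), to 4 without Yap siRNA replicate 2 (1.35%) and to 5 without negative replicate 1 (2.87%). It was 8 without Wwtr1 siRNA replicate 2 (2.8%), 10 without double knockdown replicate 2 (3.47%) and 11 without negative replicate 2 (2.19%). The number called in Wwtr1 siRNA fell to 9 without Wwtr1 siRNA replicate 1 (4.78%), 11 without its replicate 2 (4.62%), 12 without negative replicate 3 (4.74%) and 13 without negative replicate 1 (6.05%). Of the 59, 34 had an unadjusted p under 0.05 in Yap siRNA with all libraries (all genes 19.7%) and 28 to 35 did over the 12 omissions. In Wwtr1 siRNA the counts were 31 (all genes 23.9%) and 29 to 33. With the replicate block over the 3 paired groups, 33 genes were called in each single knockdown, all 21 and all 24 genes of the fit without it among them.

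Genes around the pathway were taken from lists of 5 to 22 genes, and their counts stand beside the 17.1% and 15.6% of all genes called higher and lower in the double knockdown. Of 22 subunits of the 19S regulatory particle, which feeds proteins into the 20S barrel, none was called higher in the double knockdown and Psmd8, Psmd12 and Psmc6 were called lower. Of 5 assembly and inhibitor genes tested, Psmf1, the PI31 inhibitor, was higher and Pomp, the maturation factor, lower. Of 5 genes of proteasome transcription, Nfe2l1 and Nfe2l2 were higher and Nfe2l3 lower. Nfe2l3, a relative of the proteasome regulator Nfe2l1, was read at 197, 188 and 164 normalized counts in negative siRNA, 87.1, 57.8 and 91.1 in Yap siRNA, 92.9, 157 and 199 in Wwtr1 siRNA, and 11.9, 21.7 and 34.2 in Yap+Wwtr1 siRNA, a log2 fold change of -3.07 ± 0.37 (adjusted p = 0.00012) in the double knockdown, with all 3 double knockdown libraries below the other 9. Apart from Nfe2l3, the genes of these 3 lists are named because they passed the test. None of 7 cytosolic peptidases was higher and 2 were lower (Lap3 and Tpp2), and of 8 ER folding genes 1 was lower (Pdia6).

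Of 13 regulators of MHC transcription, 5 were called higher in the double knockdown (Irf1, Rfx5, Stat2, Irf9 and Socs1) and 1 lower (Nfyb), with 3 higher in Yap siRNA and 3 in Wwtr1 siRNA (Stat2, Irf9 and Socs1 in each). Irf1, an interferon regulatory factor that acts on class I and immunoproteasome promoters, was read at 1096, 1093 and 1030.5 normalized counts in negative siRNA, 1886, 1477 and 1157 in Yap siRNA, 1568, 1323 and 1167 in Wwtr1 siRNA, and 2132, 2476 and 2095 in Yap+Wwtr1 siRNA, with 1.05 ± 0.16 (adjusted p = 0.000423) in the double knockdown. Replicate 3 was its lowest library in each single knockdown. Rfx5, a subunit of the RFX complex on class I and class II promoters, was read at 1279.6, 1119 and 957 normalized counts in negative siRNA, 1373, 1352 and 1196 in Yap siRNA, 1250.0, 1107 and 1132 in Wwtr1 siRNA, and 1446, 1501 and 1399 in Yap+Wwtr1 siRNA, with 0.38 ± 0.11 (adjusted p = 0.0159). Stat2, a factor of type I interferon signalling, was read at 3068, 4358 and 3069.7 normalized counts in negative siRNA, 14498, 11535 and 7853 in Yap siRNA, 15535, 12596 and 5901 in Wwtr1 siRNA, and 18742, 19149 and 15759 in Yap+Wwtr1 siRNA, with 2.37 ± 0.31 (adjusted p = 0.000191) in the double knockdown. Irf9, which acts in the same pathway, was read at 926, 1418 and 1022 normalized counts in negative siRNA, 2815, 2601 and 2107 in Yap siRNA, 3727, 3360.4 and 2039 in Wwtr1 siRNA, and 3934, 3842 and 3569 in Yap+Wwtr1 siRNA, with 1.78 ± 0.21 (adjusted p = 9.93e-05). Socs1, a feedback inhibitor of cytokine signalling, was read at 83.1, 47.0 and 50.6 normalized counts in negative siRNA, 221, 207 and 110.0 in Yap siRNA, 189, 181 and 113 in Wwtr1 siRNA, and 274, 388 and 298 in Yap+Wwtr1 siRNA, with 2.42 ± 0.32 (adjusted p = 0.000176). All knockdown libraries of these 3 genes lay above every negative library. Of 6 interferon signalling genes tested (receptors and kinases), Jak2 and Ifnar1 were higher and Ifngr1 lower in the double knockdown. Mr1, which presents vitamin B metabolites, and Cd1d1, which presents lipids, were higher among 5 class I-like genes outside RT1. Mr1 was read at 66.7, 70.0 and 59.9 normalized counts in negative siRNA, 88.1, 78.2 and 58.7 in Yap siRNA, 112, 85.7 and 49.8 in Wwtr1 siRNA, and 213, 129 and 164 in Yap+Wwtr1 siRNA, with 1.32 ± 0.30 (adjusted p = 0.00599).

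Promoters are shown for genes that moved together and for a constitutive subunit that did not. Sequences are from RefSeq on build GRCr8, which is not the build of the counts (rn6), and run 5′ to 3′ on the gene's strand from 250 bases before the annotated start to 50 after it. Capitals mark matches on either strand to AANNGAAA, the core bound by interferon regulatory factors, with overlapping matches run together. B2m lies at chr3:129549080-129549379 (+ strand), Tap1 at chr20:4668494-4668793 (- strand), Psmb8 at chr20:4656982-4657281 (- strand), Psmb10 at chr19:50743243-50743542 (- strand), RT1-T24-4 at chr20:2689083-2689382 (+ strand) and Psmb5 at chr15:32047330-32047629 (- strand).
B2m: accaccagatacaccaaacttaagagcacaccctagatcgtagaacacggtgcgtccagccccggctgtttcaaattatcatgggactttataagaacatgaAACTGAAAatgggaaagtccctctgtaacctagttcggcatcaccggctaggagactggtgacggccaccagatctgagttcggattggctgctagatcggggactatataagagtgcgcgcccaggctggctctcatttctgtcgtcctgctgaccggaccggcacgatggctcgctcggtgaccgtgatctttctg
Tap1: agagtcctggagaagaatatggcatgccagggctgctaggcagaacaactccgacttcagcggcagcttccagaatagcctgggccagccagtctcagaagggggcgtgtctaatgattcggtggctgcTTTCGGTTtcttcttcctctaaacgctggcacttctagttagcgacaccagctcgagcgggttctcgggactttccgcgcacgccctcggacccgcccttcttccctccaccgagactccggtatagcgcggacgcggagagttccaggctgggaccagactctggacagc
Psmb8: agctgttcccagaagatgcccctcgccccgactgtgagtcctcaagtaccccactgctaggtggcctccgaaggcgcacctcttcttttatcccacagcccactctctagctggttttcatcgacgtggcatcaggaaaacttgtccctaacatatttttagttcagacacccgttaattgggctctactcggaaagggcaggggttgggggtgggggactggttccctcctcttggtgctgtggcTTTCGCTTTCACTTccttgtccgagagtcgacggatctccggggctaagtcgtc
Psmb10: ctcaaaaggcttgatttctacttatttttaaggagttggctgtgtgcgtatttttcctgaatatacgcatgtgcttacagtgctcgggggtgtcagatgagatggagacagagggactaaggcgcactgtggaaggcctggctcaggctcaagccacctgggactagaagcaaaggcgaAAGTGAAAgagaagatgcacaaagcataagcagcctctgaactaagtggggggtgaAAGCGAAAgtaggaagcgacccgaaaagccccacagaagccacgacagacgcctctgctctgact
RT1-T24-4: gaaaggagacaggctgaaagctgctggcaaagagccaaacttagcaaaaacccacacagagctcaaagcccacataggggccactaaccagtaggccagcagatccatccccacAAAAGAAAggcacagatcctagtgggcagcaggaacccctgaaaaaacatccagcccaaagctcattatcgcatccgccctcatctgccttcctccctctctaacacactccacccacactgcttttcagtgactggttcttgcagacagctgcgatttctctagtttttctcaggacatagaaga
Psmb5: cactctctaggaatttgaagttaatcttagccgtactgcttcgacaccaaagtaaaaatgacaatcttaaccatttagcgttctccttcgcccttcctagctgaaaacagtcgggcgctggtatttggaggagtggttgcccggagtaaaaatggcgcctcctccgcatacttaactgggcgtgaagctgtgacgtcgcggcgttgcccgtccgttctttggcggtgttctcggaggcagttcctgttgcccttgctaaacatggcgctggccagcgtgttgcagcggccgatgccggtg

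Counted from the start site, a match began at position -148 in B2m, at -121 in Tap1 and at -136 in RT1-T24-4. Psmb8 held 2 overlapping matches at the start, Psmb10 held 2, at -71 and -15, and Psmb5 held none. Psmb9 lies head to head with Tap1, their starts 457 bases apart, and its own window held no match. The table gave a promoter for 54 of the 63 genes. Of the 30 genes with a promoter that rose in the double knockdown, 26 (86.7%) held at least 1 match, as did 6 of 13 constitutive core subunits (46.2%) and 25.9% of the 27457 promoters in the table. RT1 genes are related copies, so their promoters are not independent, and among the 12 genes outside RT1 the count was 10. TTCNNNGAA, the core of the gamma-activated site, was found in 2 of the 30 and in 8.68% of all promoters, and CCAAT, the box of NF-Y, in 20 of the 30, in 9 of the 13 core subunits and in 37.7% of all promoters. Of these 20, 15 were among the 18 RT1 class I genes and 5 among the 12 genes outside RT1 (41.7%). A match is a description of letters and not a binding site.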

How the data were processed

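RNA from cultured neonatal rat cardiac fibroblasts was measured by sequencing on a DNBSEQ-G400, in 4 siRNA groups of 3 libraries named in the sample titles. The authors trimmed reads with Trim Galore 0.6.5, aligned them to rn6 with HISAT2, estimated abundance with StringTie and normalized with DESeq2; use of strand is not given in the sources used here. The deposited signal values are counts divided by 1 size factor per library: in all 12 libraries 100% of values were whole multiples (within 0.01 of a step) of 1 count, so counts could be recovered. The authors' own comparison tables (fold changes and p-values) and a second copy of the same table were not used.

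Values were tested with limma 3.58.1 (R 4.3.3) on log2(value + 1) in 1 fit of all 12 libraries with a mean-variance trend, for genes with a mean of at least 10, with Benjamini-Hochberg adjustment, two-sided, at 0.05. Each knockdown was compared with negative siRNA, the knockdowns with each other, and their interaction was fitted. Alternatives were other pseudocounts, filters and scaling, no trend, edgeR 4.0.16 and DESeq2 1.42.0 on recovered counts, the compared groups alone, the replicate number as a block, and leaving out each library. The fits were tested on simulated data. The counts per library (33886920 to 41059839) set the counting error, and fold changes of genes near the minimum mean are understated by the pseudocount. The limma p-values rest on the spread between cultures within a group, pooled over all groups in the fit and moderated by the mean-variance trend.

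Same-numbered libraries of the negative, Yap and Wwtr1 groups deviated together (9 correlations of deviations from group means across genes, 0.104 to 0.276), so their numbers were taken as pairs; with the double knockdown the correlations ran from -0.127 to 0.180 and the numbers were not. Members and lists were chosen with earlier results of these data known. Every member could be named; values in all libraries are given for the presentation genes, the induced and constitutive catalytic subunits, PA28, Cd74, RT1 genes with a mean of at least 100, and the largest called rise and fall among the rest; from the pathway lists, Nfe2l3, Irf1, Rfx5 and genes called in the double knockdown past a log2 fold change of 1. A gene of the list of MHC regulators is not reported here and was left out of the counts over that list.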

Additional observations from a re-analysis of the deposited data

How the results depend on the processing

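The number of genes called in the double knockdown stayed within 31 to 43 under every alternative run (40 as reported), including the fits that left out 1 library (31 to 43). Over these alternatives 23.1% to 36.1% of all genes were called. No called gene changed direction under any alternative. Leaving out 1 library gave 3 to 25 calls in Yap siRNA (21 as reported), 9 to 29 in Wwtr1 siRNA (24), 2 to 21 for the double knockdown against Yap siRNA (13), 4 to 23 against Wwtr1 siRNA (18), and 0 to 1 both between the single knockdowns and for the interaction (0 each). Without the trend 6 genes were called in Yap siRNA (all genes 2.48%). For the double knockdown 5 were then called against Yap siRNA (11.2%) and 10 against Wwtr1 siRNA (17.4%). DESeq2 called 22 for the double knockdown against Yap siRNA (all genes 18.9%), 3 between the single knockdowns (13.8%) and 3 for the interaction (4.32%). Fitting the compared groups alone gave 11 for the double knockdown against Wwtr1 siRNA (all genes 14%). With the replicate block over all 12 libraries 26 were called for the double knockdown against Yap siRNA (all genes 17.9%). That fit called 1 between the single knockdowns (10.6%) and 1 for the interaction (1.95%). The paired fit with the replicate block and without the double knockdown libraries called 33 in Yap siRNA (16%). It called 33 in Wwtr1 siRNA (21.3%) and 4 between the single knockdowns (22.6%). The cause of these differences was not tested. The log2 ratio changes in the double knockdown ranged over their alternatives from 3.23 to 3.73 for Psmb8 to Psmb5, 2.01 to 2.16 for Psmb9 to Psmb6 and 1.16 to 1.42 for Psmb10 to Psmb7. With 3 libraries in a group, the exact test of a ratio cannot go below 0.1.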
